A study of Mus musculus with 9 samples.

Results

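Heterozygous mice with 1 remaining copy of TAAR enhancer 2 were compared with homozygous mice that have none, to ask what the loss of the remaining copy does to gene expression. The comparison used 6 of the 9 libraries of the series, chosen by the genotype in their labels: 3 TAAR enhancer 2 +/- (het) and 3 TAAR enhancer 2 -/- (homo). The other 3 libraries, from wild-type (WT) mice, entered the fit to estimate the spread between libraries and gave the size of the step from WT to het. RNA was taken from the whole main olfactory epithelium (MOE), the sensory lining of the nose, of mice at postnatal day 14. The labels give the strain as C57BL/6, and the reporting summary of the work gives mixed C57BL/6J and 129 backgrounds for its mouse lines. The element was removed from the germ line by CRISPR-Cas9 genome editing, so every cell of a mutant carries the deletion, and het and homo mice come from the same deletion line, with WT littermates. The labels give no sex and no animal or litter number, and p-values measure the spread between these libraries.

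Trace amine-associated receptors (TAARs) are G protein-coupled receptors, most of which detect volatile amines. An olfactory sensory neuron (OSN) expresses a single receptor gene, usually from 1 allele, and most OSNs use an odorant receptor (OR) gene rather than a Taar gene. The Taar genes lie together in a single cluster, and enhancers within such clusters act in cis on genes of the same chromosome copy. Taar1 is the member of the family that is not used as an olfactory receptor. TAAR enhancer 2 lies between Taar6 and Taar7a. In the GRCm38 build this interval is on chromosome 10 from 23985647 to 23992404, a length of 6.76 kb that holds no annotated Taar gene.

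Total counts in the 6 libraries ranged from 21276029 to 27623953, so that a count of 3 was worth between 0.108 and 0.142 CPM, the unit in which raw counts are rescaled so that libraries of unequal depth can be compared. The tissue label held: Omp, a marker of mature OSNs, was between 1999 and 2388 CPM, and the summed level of 5 mature OSN markers (Omp, Gnal, Adcy3, Cnga2 and Gng13) was between 5111 and 5594 CPM in het and between 5339 and 5882 CPM in homo. With genotype in the fit, libraries with replicate number 1 differed from the other replicate numbers in 1769 of 19775 tested genes. Of the 14 olfactory Taar genes, 0 were among these, which is near that share and does not set them apart. Sex differed between the groups. Xist, which is transcribed from the inactive X chromosome, had 62051 counts in het replicate 2, 81664 in homo replicate 2 and 71090 in homo replicate 3, and at most 49 counts in the other 3 libraries. In these 3, the Y-linked gene Eif2s3y had 1883 counts in het replicate 1, 3057 in het replicate 3 and 2001 in homo replicate 1, against at most 4 in the Xist-high libraries. Tsix, the antisense transcript of Xist, had a log2 fold change of 0.41 (SE 0.470), and reads from the 2 overlapping genes may not have been told apart, since the strand option of the counting is not given in the sources used here. In het replicate 3 the vomeronasal receptor genes, which mark the neurons of a separate sensory organ of the nose, summed to 128.0 CPM, against 15.8 to 21.9 CPM in the other 5 libraries. The last observation was made after the values were seen, and values that this library moves by over 1.5 times are given with and without it.

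The Taar7 genes are close copies of each other, so their counts depend on the places where they differ. The first 90 coding bases of the 5 intact Taar7 genes in GRCm38 (GENCODE vM21 models), from base 1 to base 90 counted from the start codon, are shown because the gene beside the element and its copies responded unequally. Capitals mark the 32 positions at which the 5 genes are not all the same.
Taar7a: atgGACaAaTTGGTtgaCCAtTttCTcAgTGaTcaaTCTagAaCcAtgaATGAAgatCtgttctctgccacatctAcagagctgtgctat
Taar7b: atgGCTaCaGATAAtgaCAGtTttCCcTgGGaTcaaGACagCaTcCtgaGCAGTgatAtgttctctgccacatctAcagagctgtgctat
Taar7d: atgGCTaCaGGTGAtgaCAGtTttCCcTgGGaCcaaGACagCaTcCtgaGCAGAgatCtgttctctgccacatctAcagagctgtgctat
Taar7e: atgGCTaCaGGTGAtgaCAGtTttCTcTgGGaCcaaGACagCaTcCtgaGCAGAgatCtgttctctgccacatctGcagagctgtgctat
Taar7f: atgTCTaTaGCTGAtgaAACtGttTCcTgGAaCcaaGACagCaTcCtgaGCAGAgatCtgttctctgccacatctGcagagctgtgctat
The printed stretch of Taar7a is chr10:23993392-23993481 on the minus strand, and that of Taar7b is chr10:23999939-24000028 on the plus strand. Over the whole coding length of 1077 bases, Taar7a was 93.1% identical to Taar7b and 91.7% identical to Taar7f. Of all 50-base windows of the gene, 61.4% were found in no other gene for Taar7a, 59.6% for Taar7b, 70.5% for Taar7d, 46.1% for Taar7e and 48.7% for Taar7f. The Taar8 genes were more alike, with 49.1% of windows unique for Taar8a, 43.6% for Taar8b and 27.5% for Taar8c. Taar2, Taar3, Taar4, Taar5 and Taar9 had only unique windows, and Taar6 had 99.9%. How reads matching several copies were counted is not given in the sources used here, so values of single Taar7 and Taar8 genes carry that uncertainty.

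Taar6, which borders the interval opposite to Taar7a, fell when the remaining copy was lost. It lies on chromosome 10 from 23984609 to 23985646 on the minus strand. Taar6 had 96, 117 and 132 counts in het replicates 1, 2 and 3, and 14, 17 and 20 in the homo replicates. In CPM its level was 4.73 ± 0.436 (SD, n = 3) in het and 0.663 ± 0.0710 (SD, n = 3) in homo, a 7.13-fold difference in summed counts scaled for depth. All 3 homo libraries lay far below all 3 het libraries. The log2 fold change was −2.83 (SE 0.180, 95% confidence interval −3.23 to −2.42), with an adjusted p of 0.00118 in the quasi-likelihood test of edgeR, Benjamini-Hochberg adjusted over 19775 genes. It was the only gene past the threshold of an adjusted p under 0.05 and a fold change over 1.5, which makes 0.00506% of genes tested called lower. Leaving out any single library kept this call. Leaving out all libraries of 1 replicate number, which leaves 2 against 2, removed it: the log2 fold change was −2.83 without replicate number 1, −2.815 without 2 and −2.84 without 3, and the adjusted p was 0.211, 1 and 0.289.

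In bulk tissue, fewer neurons that use a gene and less RNA in each such neuron cannot be told apart, here and in every result that follows. Taar7a, Taar9 and Taar3, which had lower levels than Taar6 in het, each had an adjusted p of 0.0553 by edgeR, just outside the threshold. Taar7a, the gene that borders the element, had 52, 101 and 81 counts in het and 14, 20 and 17 in homo, or 3.16 ± 0.679 and 0.661 ± 0.0486 CPM (SD, n = 3). Its log2 fold change was −2.25 (SE 0.246). Taar9, the gene at the far end of the cluster and a receptor of the same family, had 37, 53 and 63 counts in het and 5, 6 and 10 in homo, or 2.08 ± 0.379 and 0.271 ± 0.0872 CPM (SD, n = 3). Its log2 fold change was −2.91 (SE 0.342). For both genes the lowest het library was well above the highest homo library.

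Pairing of het with homo by replicate number was considered because the deviations of same-numbered libraries correlated. The main fit holds no term for it. For numbers 2 and 3 the crossed pairs correlated more (0.544 and 0.547) than the same-numbered pairs (0.365 and 0.286). Numbers 2 and 3 are thus not shown to mark pairs. A fit with the replicate number as a block called 3 genes, or 0.0152% of those tested. These were Taar6 (adjusted p = 0.00358, edgeR with a replicate block), Taar7a (adjusted p = 0.0233) and Taar9 (adjusted p = 0.0226). In that fit the log2 fold changes were −2.83, −2.24 and −2.93, nearly the same as without the block.

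Taar3 and Taar5, receptors whose genes lie on the Taar6 side of the element, were the other members with a steep difference. Taar3 had 32, 21 and 21 counts in het and only 1, 1 and 2 in homo. The ratio of the summed counts, scaled for depth, was 19.5 (95% exact counting interval 7.31 to 73.5), and the fitted log2 fold change was −4.20 (SE 0.592). With a replicate block the adjusted p of Taar3 was 0.240 by edgeR, and over all alternatives it ran from 0.00154 to 1. Taar5, a receptor for trimethylamine, had 24, 35 and 40 counts in het and 10, 3 and 4 in homo, or 1.35 ± 0.226 and 0.237 ± 0.189 CPM (SD, n = 3). Its log2 fold change was −2.54 (SE 0.473), with an unadjusted p of 0.000348 and an adjusted p of 1 by edgeR. Homo replicate 1, with 10 counts, was the highest of the homo libraries and still below every het library. Without it the log2 fold change was −3.36 (adjusted p = 0.153, edgeR).

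**Figure D1:**
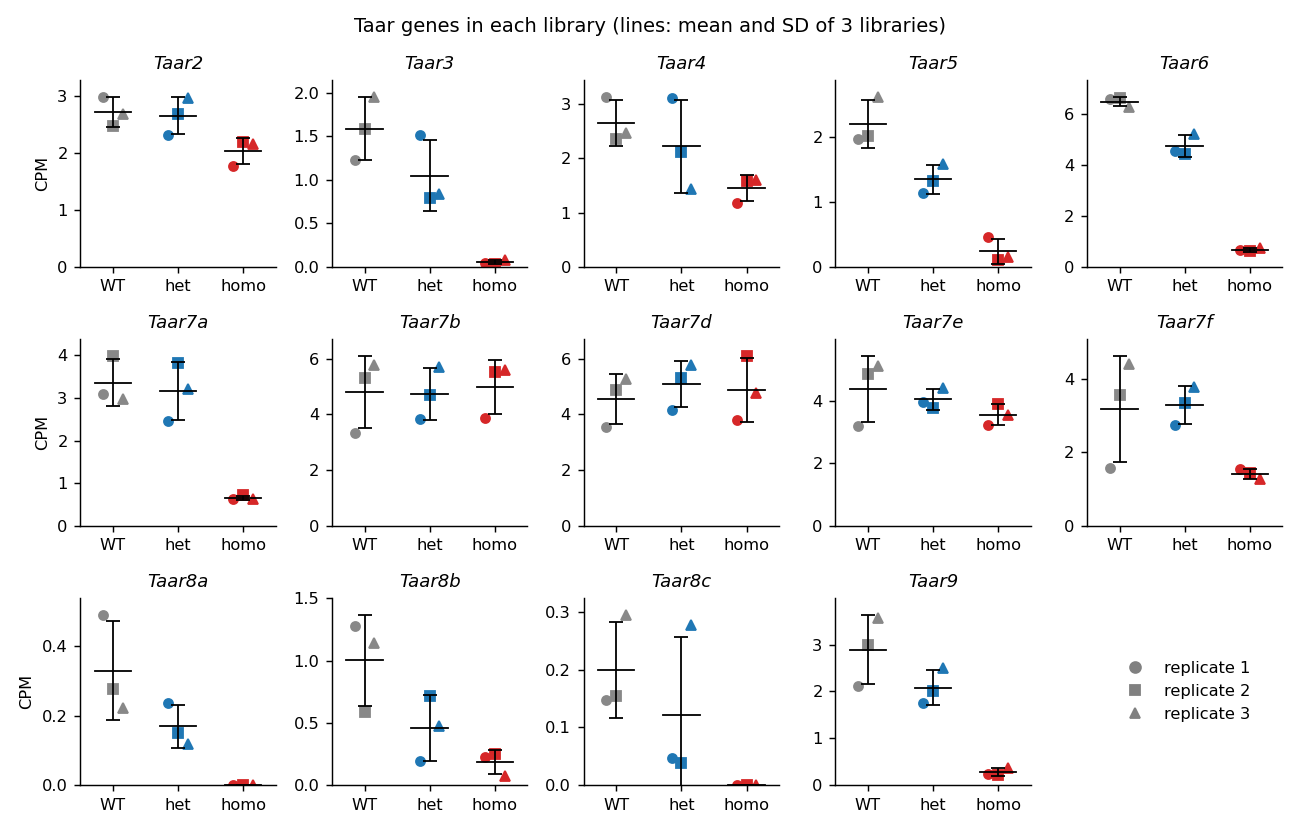
Level in CPM (y axis) of each of the 14 olfactory Taar genes in WT (grey), het (blue) and homo (red) libraries, with replicate numbers by symbol and lines for the mean and SD of 3 libraries. Homo libraries sat below every het library for Taar6 (0.610 to 0.743 against 4.42 to 5.23 CPM), and mixed with them for Taar7b, Taar7d and Taar7e.

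Taar7f, the outermost of the Taar7 copies, was intermediate. It had 58, 88 and 95 counts in het and 34, 40 and 34 in homo, 3.28 ± 0.511 and 1.41 ± 0.140 CPM (SD, n = 3). The groups did not overlap, the log2 fold change was −1.21 (SE 0.345), and the p was 0.00640 before and 1 after adjustment by edgeR. In WT it was at 1.57, 3.56 and 4.39 CPM, so WT replicate 1 was close to the highest homo library (1.54 CPM).

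The Taar8 genes were low in all libraries. Taar8a had 5, 4 and 3 counts in het and 0, 0 and 0 in homo, at least 4.22-fold lower when the floor of 3 counts over the group is set against the het sum. Taar8c had 1, 1 and 7 counts in het and 0, 0 and 0 in homo, at least 3.16-fold lower by the same floor. Het replicate 3 held most of its het counts, and without that library the het sum of 2 counts lies under the floor, so no fold can be given. Taar8b had 4, 19 and 12 counts in het and 5, 7 and 2 in homo. Its groups overlapped (log2 fold change −1.33, SE 0.643; unadjusted p = 0.0618, edgeR). Intervals of counts include counting error alone, since PCR copies were not marked by molecular identifiers. The floors take the het sum without its counting error, so the true folds of Taar8a and Taar8c may lie below these bounds.

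The other 5 members had an unadjusted p of 0.0798 or more by edgeR. Taar7b, whose start codon is 6.46 kb from that of Taar7a, had 81, 124 and 144 counts in het and 85, 154 and 150 in homo. Its level was 4.74 ± 0.937 CPM in het and 4.98 ± 0.980 CPM in homo (SD, n = 3), and its log2 fold change was 0.07 with a 95% confidence interval of −0.51 to 0.66. Taar7d had a log2 fold change of −0.05 (95% confidence interval −0.59 to 0.48) and Taar7e of −0.19 (95% confidence interval −0.66 to 0.29). For these 3 genes the libraries of both genotypes were mixed, and the intervals do not reach the size of the change in Taar7a.

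Taar2 and Taar4 lie in the part of the cluster on the Taar1 side. Taar2 had 49, 71 and 75 counts in het and 39, 61 and 58 in homo, which is 2.66 ± 0.327 and 2.04 ± 0.234 CPM (SD, n = 3). The groups of Taar2 did not overlap in CPM, but the log2 fold change was only −0.38 (95% confidence interval −0.83 to 0.07; unadjusted p = 0.0861, edgeR). Taar4 had 66, 56 and 36 counts in het and 26, 44 and 43 in homo, with a log2 fold change of −0.60 (95% confidence interval −1.29 to 0.09) and overlapping groups. Taar1 had 0 counts in all 6 libraries, which is a level of at most 3 counts in each, and was not tested.

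In all, 13 of the 14 olfactory Taar genes had a negative log2 fold change, with a median of −1.79 (−1.495 with Taar8a and Taar8c at their bounds), against a median of 0.00 over all tested genes. Without adjustment, 8 of the 14 had a p under 0.05 in the lower direction and 0 in the higher direction (0.349% and 0.314% of all tested genes). The homo libraries lay below all het libraries in 9 of the 14, against 1.81% of all tested genes, and above them in 0, against 2.35%. All 14 passed the filter on low counts, but Taar8a and Taar8c passed it through het and WT alone. Both are among the 8 and among the 9, and neither is support for a fall. Under filterByExpr, which left both untested, 6 olfactory Taar genes had an unadjusted p under 0.05 in the lower direction by edgeR.

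**Figure D2:**
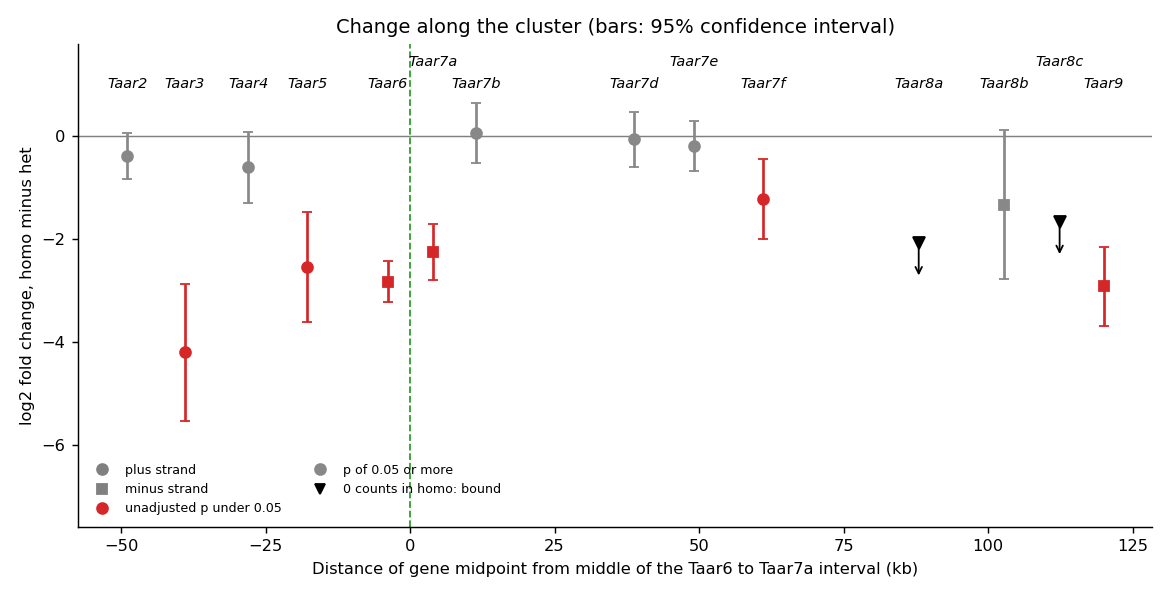
Log2 fold change of homo against het (y axis, bars give the 95% confidence interval) against the distance in kb of each gene's midpoint from the middle of the interval between Taar6 and Taar7a (x axis, dashed line at 0). Triangles are bounds for Taar8a and Taar8c, which had 0 counts in homo. Taar6 at −3.90 kb and Taar9 at 120.0 kb had similar changes, while Taar7b at 11.5 kb was near 0.

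The size of the change did not fall off evenly with distance from the middle of the interval that holds the element, as the plot along the cluster shows. By the coordinates in the paper, the deleted stretch lies off that middle, nearer to Taar6. The distances given are therefore not distances from the element itself. The gene midpoints nearest to the middle of the interval were those of Taar6 (3.90 kb away, on the Taar1 side) and Taar7a (3.92 kb, on the Taar9 side). Next on the Taar9 side came Taar7b at 11.5 kb, Taar7d at 38.7 kb and Taar7e at 49.1 kb, none with an unadjusted p under 0.05 by edgeR. Beyond these 3 genes, Taar7f lay at 61.0 kb, the low Taar8 genes from 88.0 to 112.4 kb and Taar9 at 120.0 kb. On the Taar1 side, Taar5 at 17.8 kb and Taar3 at 39.0 kb had changes of over 2 on the log2 scale, whereas Taar4, which lies between them, and Taar2, beyond Taar3, did not. Of the 14 genes, 9 are on the plus strand and 5, including Taar6, Taar7a and Taar9, on the minus strand. The arrangement is described without a test.

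Summed over the 14 olfactory Taar genes, the level was 32.0, 35.1 and 38.3 CPM in het replicates 1, 2 and 3 and 17.6, 22.7 and 21.0 CPM in the homo replicates. The mean of homo was 58.1% ± 8.995 of the mean of het, with the spread taken from both groups. By replicate number the ratio was 54.9%, 64.5% and 54.7%. This loss was uneven among members. The sum of Taar3, Taar5, Taar6, Taar7a and Taar9 was 12.4 ± 0.974 CPM in het and 1.88 ± 0.172 CPM in homo (SD, n = 3). The sum of Taar7b, Taar7d and Taar7e was 13.9 ± 1.98 CPM in het and 13.4 ± 2.36 CPM in homo (SD, n = 3), which is 96.8% of het. Both groupings were made after the values were seen and carry no test.

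Scaled by coding length, the makeup of the summed Taar level differed between the genotypes. Taar7b, Taar7d and Taar7e together held 38.7% ± 2.11 of the summed CPM per kb of Taar genes in het and 64.9% ± 3.42 in homo (SD, n = 3). Taar6 held 13.7% ± 0.819 of it in het and 3.37% ± 0.524 in homo. In het the highest levels per kb were those of Taar7d (4.71 CPM per kb), Taar6 (4.56) and Taar7b (4.40), which differed by less than their spread. In homo the order was led by Taar7b (4.63 CPM per kb), Taar7d (4.54) and Taar7e (3.31), and Taar6 was at 0.638. Of all counts on Taar and OR genes, Taar genes took 0.897%, 0.894% and 0.923% in the het libraries and 0.497%, 0.510% and 0.501% in the homo libraries.

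**Figure D3:**
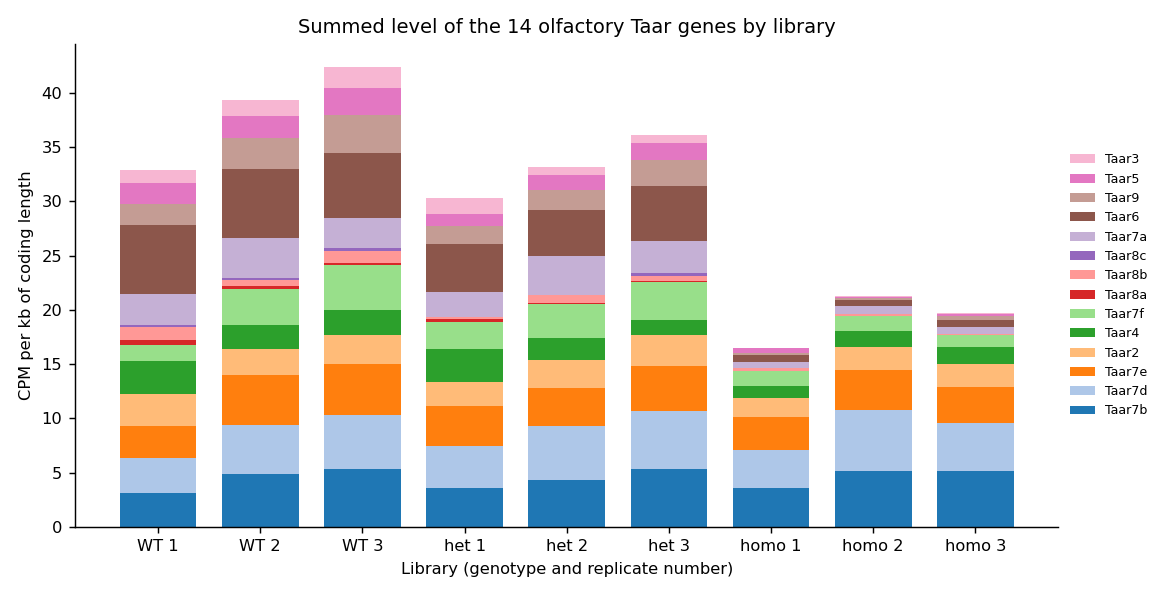
Summed CPM per kb of the 14 olfactory Taar genes by library (x axis: genotype and replicate number), in CPM per kb of coding length (y axis), with a colour for each gene. The segments of Taar7b, Taar7d and Taar7e at the base are similar in het and homo, and the upper segments (Taar7a, Taar6, Taar9, Taar5, Taar3) are small in homo, where they hold 9.54% of the sum on average against 35.6% in het.

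The step from het to homo was also set against the step from WT to het, as a difference of log2 fold changes. On this scale an equal loss per copy gives a larger second step, and both steps use the het libraries, so an error in these enters both with opposite sign. The comparison therefore does not say which copy contributed more. Taar6 changed by −0.45 (SE 0.159) from WT to het and by −2.83 from het to homo, a difference of −2.37 (SE 0.289) with an adjusted p of 0.227 by edgeR. No gene (0) passed by edgeR, 152 genes had an unadjusted p under 0.05, and the Wald test of DESeq2 called 1 gene, Taar6. In CPM, Taar6 had means of 6.49 in WT, 4.73 in het and 0.663 in homo, and Taar5 had means of 2.20, 1.35 and 0.237. The first log2 step was −0.09 (SE 0.225) for Taar7a, −0.48 (SE 0.282) for Taar9, −0.61 (SE 0.349) for Taar3 and −0.70 (SE 0.389) for Taar5.

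Genes beside the Taar cluster gave no call. Of the 5 neighbours, Slc18b1, a vesicular polyamine transporter, was at 36.2 ± 1.86 CPM in het and 37.6 ± 1.38 CPM in homo (SD, n = 3). Stx7, a syntaxin of late endosomes on the Taar9 side, was at 114.3 ± 7.10 and 112.7 ± 10.3 CPM, and Moxd1, a monooxygenase homologue, at 32.4 ± 2.08 and 33.8 ± 1.88 CPM. Their log2 fold changes were 0.06 (SE 0.098), −0.02 (SE 0.110) and 0.06 (SE 0.129). The pantetheinases Vnn1 and Vnn3 varied more between libraries. Vnn3 ranged from 0.491 to 3.33 CPM in het and from 0.260 to 1.11 CPM in homo, and the log2 fold changes of −0.19 (SE 0.629) for Vnn1 and −1.001 (SE 0.991) for Vnn3 are not distinguishable from 0 at this spread. Without het replicate 3 the value of Vnn3 was 0.13.

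**Figure D4:**
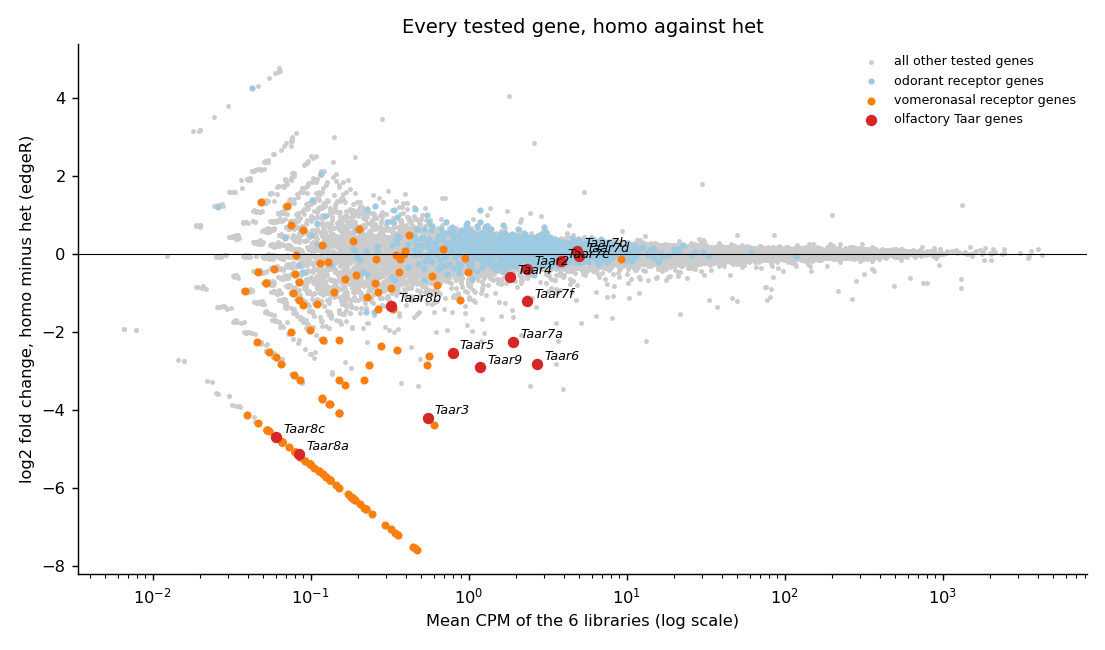
Fitted log2 fold change of homo against het (y axis) against mean CPM of the 6 libraries (x axis, log scale) for the 19775 tested genes, with OR genes in light blue, vomeronasal receptor genes in orange and olfactory Taar genes in red. Taar6, Taar7a, Taar9, Taar5 and Taar3 lie below the bulk of genes at the same level, and fitted values of genes with 0 counts in a group, such as Taar8a, depend on the prior count.

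OR genes form the other large receptor family of the MOE. None of the 1088 tested OR genes was called by edgeR, and 10 had an unadjusted p under 0.05, 1 lower and 9 higher (all genes tested: 0.349% lower and 0.314% higher). Their median log2 fold change was 0.08, with 67.0% of OR genes above 0, against 51.4% of all tested genes. Summed OR levels overlapped, at 3538, 3895 and 4113 CPM in het and 3520, 4426 and 4161 CPM in homo. Homo libraries lay above all het libraries in 67 of the 1088 OR genes and below them in 11 (all genes tested: 2.35% and 1.81%). Class I OR genes, the older family found also in fish, summed to 326.6 to 350.7 CPM in het and 350.9 to 414.4 CPM in homo, narrowly without overlap. In WT they summed to 303.2, 339.8 and 388.7 CPM, so the gap lies within the spread of a single genotype. Their median was 0.16 over 111 tested genes, and the other OR genes had a median of 0.08 over 977. This small shift varied with the libraries used. Without homo replicate 2 the median over OR genes was −0.01 and 48.3% were above 0, without het replicate 1 it was 0.03 and 54.7%, and without homo replicate 1 it was 0.18 and 79.1%. With Xist as a covariate the median was 0.02 and 53.4% were above 0.

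Values of single OR genes are given for those with the smallest p-values and the highest levels. Olfr1356 had 17, 16 and 21 counts in het and 33, 53 and 40 in homo, a log2 fold change of 1.124 (SE 0.307, unadjusted p = 0.00491, edgeR). Olfr694 was at 2.29 ± 0.355 CPM in het and 3.73 ± 0.305 CPM in homo (SD, n = 3; log2 fold change 0.70, SE 0.192), and Olfr497 at 0.852 ± 0.213 and 1.505 ± 0.128 CPM (log2 fold change 0.82, SE 0.293). In the lower direction the smallest p-values belonged to Olfr294 (log2 fold change −1.495, SE 0.580), Olfr804 (−0.54, SE 0.271) and Olfr403 (−0.39, SE 0.204). All 6 had an adjusted p of 1. The OR genes with the highest levels barely differed: Olfr536 was at 120.9 ± 2.54 CPM in het and 116.5 ± 10.1 in homo, Olfr1507 at 60.0 ± 6.63 and 61.7 ± 11.3, and Olfr1372-ps1 at 33.8 ± 8.86 and 32.7 ± 8.11 (SD, n = 3).

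The machinery that OSNs share showed no called change. In the list of olfactory signal transduction, 0 of 17 genes were called, 0 had an unadjusted p under 0.05, and the median log2 fold change was 0.04, with a range from −0.09 (Slc12a2, a chloride cotransporter) to 0.14 (Gng13, a G protein subunit). Omp was at 2104 ± 89.995 CPM in het and 2179 ± 196 in homo, Gnal, the olfactory G protein alpha subunit, at 2079 ± 67.8 and 2103 ± 84.0, and Ano2, the chloride channel of the cilia, at 262.4 ± 7.59 and 283.5 ± 26.9 (SD, n = 3). In the list of receptor transport and choice, 0 of 21 genes were called or had a p under 0.05, with a median of 0.01. Its members included Atf5, a stress-response factor of maturing OSNs (log2 fold change 0.05, SE 0.258), Ebf3, a transcription factor with sites in many OR promoters (0.00, SE 0.180), and Reep1, a receptor transport protein (0.12, SE 0.135).

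In the list of axon sorting, 0 of 16 genes were called, with a median of 0.06. Pcdh10, a protocadherin of OSN axons, was its 1 gene with an unadjusted p under 0.05. It was at 84.9, 68.4 and 59.6 CPM in het and 99.8, 81.4 and 118.1 CPM in homo, so the groups overlapped (log2 fold change 0.49, SE 0.164, unadjusted p = 0.0148, adjusted p = 1, edgeR). Cntn4, a contactin, had a log2 fold change of 0.01 (SE 0.090) and Acsm4, a zone-restricted enzyme, of 0.08 (SE 0.116). Immature neuron markers had a median of 0.03 over 13 genes, with Dpysl3 at 0.00 (SE 0.1249), Ncam1 at 0.04 (SE 0.183) and Ablim1 at −0.07 (SE 0.079). Basal cell and progenitor markers had a median of −0.01 over 15 genes, with the proliferation marker Mki67 at −0.02 (SE 0.184), Sox11 at −0.04 (SE 0.133) and the integrin Itga6 at −0.15 (SE 0.115).

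**Figure D5:**
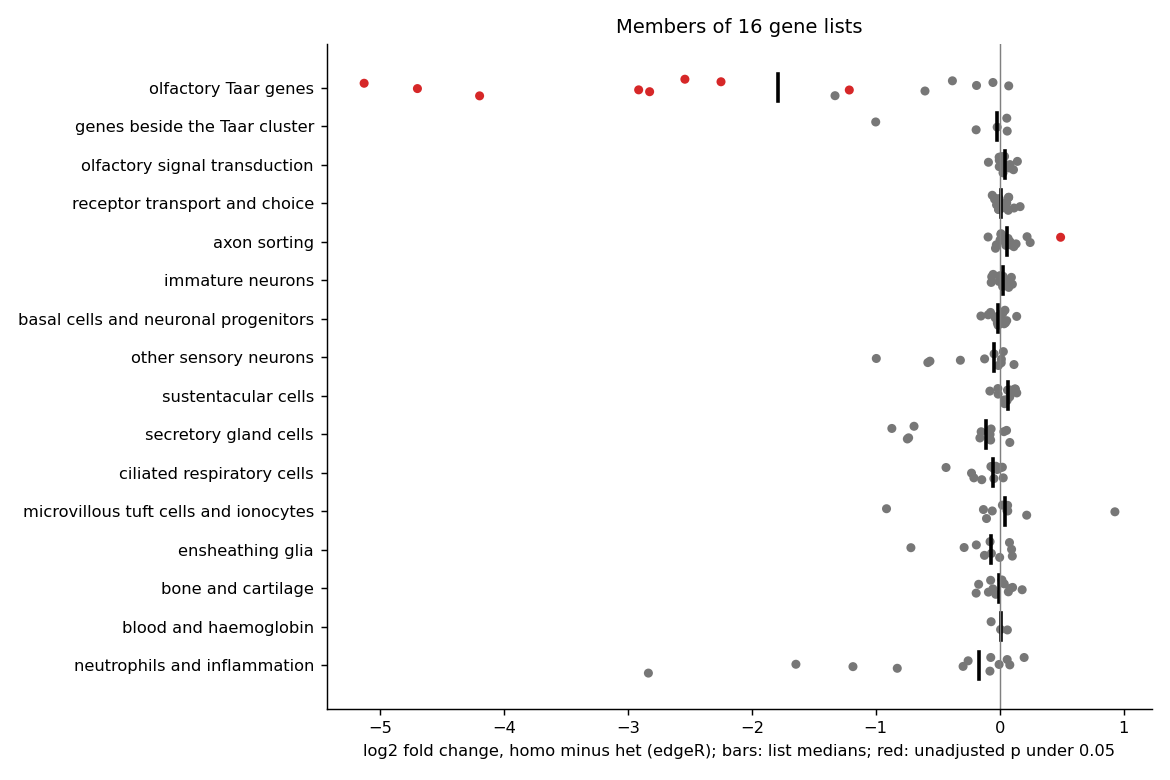
Fitted log2 fold change of homo against het (x axis) for the tested members of 16 gene lists (rows), with a bar at each list's median and members of unadjusted p under 0.05 in red. The olfactory Taar genes had a median of −1.79, and Pcdh10 was the only red point in another list.

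Markers of other cells in the tissue gave no calls either. Sustentacular cells, the supporting cells of the epithelium, had a median of 0.06 over 13 genes, with Cyp2a5 at 0.08 (SE 0.170), Sec14l3 at 0.13 (SE 0.326) and Muc2 at 0.09 (SE 0.105) on the log2 scale. Ciliated respiratory cells had a median of −0.05 over 13 genes, with the ciliary assembly genes Ccdc39 at 0.01 (SE 0.162) and Ccdc40 at 0.03 (SE 0.129) and Sntn at −0.23 (SE 0.183). Microvillous cells and ionocytes had a median of 0.04 over 10 genes, with Coch at 0.07 (SE 0.193), the chloride channel Cftr at −0.06 (SE 0.196) and Chat, the acetylcholine-synthesizing enzyme, at 0.93 (SE 0.481), the last from 6, 5 and 10 counts in het and 10, 14 and 19 in homo. Ensheathing glia had a median of −0.07 over 10 genes, with Apod at 0.08 (SE 0.382), Fabp7 at 0.10 (SE 0.261) and Gfap at −0.72 (SE 0.465). Bone and cartilage had a median of −0.01 over 12 genes, with Col1a2 at −0.03 (SE 0.249), Col1a1 at −0.05 (SE 0.344) and Ctsk at 0.10 (SE 0.124).

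Secretory gland genes summed to 10555, 10801 and 12062 CPM in het and 9835, 9625 and 8522 CPM in homo, without overlap. In WT they summed to 9340, 12137 and 14192 CPM, so libraries of a single genotype spread over more than this gap. Their median log2 fold change of homo against het was −0.11 over 12 genes, of which 0 were called. Obp2b, an odorant-binding protein, went from 1002 ± 390 CPM in het to 598 ± 248 in homo (SD, n = 3; unadjusted p = 0.0639, edgeR), Bpifa1 had a log2 fold change of −0.16 (SE 0.123) and Bpifb4 of 0.03 (SE 0.258). Neutrophil and inflammation genes varied widely between libraries of a genotype. Their summed level was between 482 and 1368 CPM in het and between 343 and 757 CPM in homo, and Lcn2 was at 285.8 CPM in het replicate 3 and at most 19.8 CPM in the other het libraries. Without that library the log2 fold change of Lcn2 went from −1.18 to 1.35, and without homo replicate 2 it was −2.34. Ltf had a log2 fold change of −0.83 (SE 0.668), and of −1.62 without homo replicate 1. Of the blood list, Slc4a1 had a log2 fold change of −0.07 (SE 0.342) and Alas2 of 0.01 (SE 0.184), and the 4 haemoglobin genes were listed at 0 in every library. The part of these cell types in the Taar result was not tested.

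Among other sensory neurons of the nose, 0 of 11 tested markers were called, with a median of −0.04. Trpc2, also in this list, was listed at 0 in every het and homo library, het replicate 3 included, and was not tested. Cacna2d1 had a log2 fold change of −0.04 (SE 0.117), Car2, the carbonic anhydrase of guanylyl cyclase-D neurons, of 0.03 (SE 0.162), and Emx1 of −0.58 (SE 0.383). Vomeronasal receptor genes were a separate case. Of 137 tested, 17 had an unadjusted p under 0.05 in the lower direction, of the 69 such genes over the whole table. Without het replicate 3, in which these receptors were high, 46 of them passed the filter on low counts and 0 had such a p. Taar genes with such a p numbered 8 with and 8 without that library, and Taar6 was the only gene called in both fits.

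Outside the Taar family, 0 genes were called by edgeR, and the named genes with the smallest p-values all had an adjusted p of 1. Lrrc26, an auxiliary subunit of BK potassium channels, was at 12.7, 10.5 and 12.2 CPM in het and 9.29, 7.82 and 7.81 CPM in homo, a log2 fold change of −0.51 (SE 0.134, unadjusted p = 0.00425, adjusted p = 1, edgeR). The groups did not overlap. Srp54b, a copy of the signal recognition particle subunit gene, was at 17.2, 26.1 and 22.5 CPM in het and 1.68, 2.47 and 9.81 CPM in homo (log2 fold change −2.23, SE 0.575, unadjusted p = 0.00427, edgeR). In WT it was at 13.1, 10.2 and 23.1 CPM, so it varied widely within a genotype. Only 10.6% of its 50-base windows were unique, its copy Srp54a had a log2 fold change of 0.24 (SE 0.258) and its copy Srp54c was listed at 0, so the value is uncertain. Without homo replicate 3, the highest of the homo libraries, its log2 fold change was −3.39 (adjusted p = 0.168, edgeR). Tpsb2, a mast cell tryptase, had 14, 10 and 15 counts in het and 4, 4 and 2 in homo (log2 fold change −2.01, SE 0.626). In WT it had 7, 6 and 2 counts, so the het libraries were the high ones. Vmn2r78, a vomeronasal receptor, and Ankrd63 owed most of their het counts to replicate 3, with 31 and 43 counts there against at most 10 in the other het libraries. Without het replicate 3 their log2 fold changes went from −2.47 to −1.42 and from −3.30 to −1.33.

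In the higher direction, besides Olfr1356 and Olfr694, the smallest p-values belonged to Dmrtc1a, Mir7041 and Ido1. Dmrtc1a, an X-linked gene of the DMRT family, had 20, 20 and 23 counts in het and 47, 41 and 43 in homo (log2 fold change 0.99, SE 0.324, unadjusted p = 0.0134, edgeR). In WT it had 40, 42 and 25 counts, so the het libraries were the low ones. Mir7041 had 0 counts in het and 4, 3 and 1 in homo, and 2, 5 and 3 in WT. Ido1, the tryptophan-degrading dioxygenase, had 0 counts in het and 2, 6 and 2 in homo, and 0, 0 and 1 in WT. Both genes are near the limit of detection at this depth. Ido1 passed the filter on low counts only through its homo libraries, so its small p in the higher direction is no support for a change.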

How the data were processed

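Libraries were strand-specific and polyA-selected. The authors trimmed reads with Trimmomatic 0.36, mapped them to GRCm38 (mm10) with HISAT2 2.1.0 and deposited raw counts per gene symbol from featureCounts (Subread 1.6.2); the annotation release, strand option and handling of multi-mapped reads are not given in the sources used here. The deposited normalized values were not used. Every table column was matched to a library by name.

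Counts were tested with edgeR 4.0.16 (quasi-likelihood, R 4.3.3, TMM, 2-sided), with all 9 libraries in 1 fit and the contrast homo minus het, over 19775 of 24421 genes whose counts summed to 10 or more. The edgeR common dispersion was 0.0545 (coefficient of variation 23.3%). A gene was called at a Benjamini-Hochberg adjusted p under 0.05 and a fold change over 1.5. CPM used TMM effective library sizes. SEs came from the fit, with none where a group had 0 counts; folds against such groups used a floor of 3 counts over the group. The step test had no fold limit. Total counts were 21276029, 26174388 and 24905135 in het and 22292647, 27623953 and 26522039 in homo. The test was checked on simulated counts. Alternatives included DESeq2 1.42.0, limma-voom (limma 3.58.1), other scalings and filters, a replicate block, an Xist covariate and left-out libraries.

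Deviations from the group means of het and homo libraries with the same replicate number correlated at 0.801, 0.365 and 0.286 over 16346 genes. All lie above the limit of 0.1 for considering the numbers as pairs. The main fit holds no replicate term, and a fit with a replicate block was run beside it. The labels do not say what the number marks. Het replicate 2 with homo replicate 3 (0.544) and het replicate 3 with homo replicate 2 (0.547) correlated more.

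Genes named were Taar1 and the olfactory Taar genes, the 5 neighbours, the 5 smallest p-values per direction outside the Taar family (unnamed models left out), the 3 smallest per direction and 3 most abundant among OR genes, and the 2 most abundant and 1 smallest p of each other list. A gene that this rule names in the blood list is not reported here. Members and lists were chosen with earlier results of these data known; the vomeronasal genes were added after seeing the values. Gene positions are from RefSeq (GRCm38.p6) and sequences from GENCODE vM21. Class I OR genes were Olfr543 to Olfr692 on chromosome 7.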

Additional observations from a re-analysis of the deposited data

How the results depend on the processing

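Of 80 named genes, 41 changed neither direction nor call under any alternative. The 1 gene called became 4 with library totals and 4 with no filter (Taar3, Taar6, Taar7a and Taar9), 5 by the Wald test of DESeq2 (these and Taar5), 2 with the newer quasi-likelihood estimate (Taar3 and Taar6), and 3 with the replicate block and 3 with a term for replicate number 1 (Taar6, Taar7a and Taar9 in both), each of them a Taar gene. The adjusted p of Taar7a, Taar9 and Taar3 was 0.0487 with library totals and 0.0464 with no filter. DESeq2 size factors, filterByExpr, limma-voom, the Xist covariate, only het and homo libraries, and each single library left out gave 1 gene, Taar6. Leaving out libraries gave between 0 and 1 genes, and 0 only without a whole replicate number, where fewer samples remain. For the step difference, the Wald test called 1 gene, Taar6. The replicate block changed no other call, and with only het and homo libraries it called Taar6 alone. The log2 fold change of Taar6 ran from −2.92 to −2.75 over the alternatives. Genes near 0, and also Vnn3, Lcn2 and Eif2s3y, changed sign, with the log2 fold changes that follow. The cause was not tested. Under the Xist covariate, Vnn1 0.0478, Dpysl3 −0.00562, Cyp2a5 −0.0128, Sec14l3 −0.0226, Ccdc39 −0.0744, Cftr 0.0549, Fabp7 −0.0960, Col1a2 0.0194, Col1a1 0.00486, Lcn2 0.952. Under DESeq2 size factors, Ebf3 −0.00753, Dpysl3 −0.00702, Ccdc39 −0.00377, Alas2 −0.000960. Under library totals, Ebf3 −0.00207, Dpysl3 −0.00152. Under no filter, Ebf3 −0.00495, Dpysl3 −0.00457, Ccdc39 −0.00168. Under filterByExpr, Ebf3 −0.00355, Dpysl3 −0.00304. Under the Wald test, Ebf3 −0.00753, Dpysl3 −0.00703, Ccdc39 −0.00377, Alas2 −0.00125. Under only het and homo libraries, Ebf3 −0.00490, Dpysl3 −0.00452, Ccdc39 −0.00171. Under the block with only het and homo libraries, Ebf3 −0.000925, Dpysl3 −0.00413. Under the replicate block, Ccdc39 −0.00193, Lcn2 0.322. With libraries left out, genes that changed sign at least once had log2 fold changes of Taar7b −0.0570 to 0.227, Taar7d −0.253 to 0.0905, Vnn1 −0.444 to 0.0647, Vnn3 −1.76 to 0.552, Stx7 −0.0820 to 0.0469, Olfr536 −0.105 to 0.00724, Olfr1507 −0.114 to 0.154, Olfr1372-ps1 −0.245 to 0.140, Omp −0.0271 to 0.105, Gnal −0.0265 to 0.0445, Atf5 −0.140 to 0.299, Ebf3 −0.147 to 0.169, Cntn4 −0.0333 to 0.0344, Dpysl3 −0.0658 to 0.0686, Ncam1 −0.0959 to 0.215, Mki67 −0.126 to 0.0553, Sox11 −0.0863 to 0.0115, Cacna2d1 −0.117 to 0.0431, Car2 −0.0609 to 0.150, Cyp2a5 −0.0215 to 0.196, Bpifb4 −0.0289 to 0.0851, Ccdc39 −0.113 to 0.124, Ccdc40 −0.0591 to 0.155, Coch −0.0321 to 0.219, Cftr −0.243 to 0.164, Apod −0.115 to 0.231, Fabp7 −0.0685 to 0.287, Col1a2 −0.267 to 0.118, Col1a1 −0.407 to 0.197, Slc4a1 −0.261 to 0.101, Alas2 −0.0984 to 0.0937, Lcn2 −2.84 to 1.67, Eif2s3y −9.27 to 0.0232. Depth limits Taar8a, Taar8c and Taar3, whose homo counts are at or under 3 per library.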
